A study of Phycomyces blakesleeanus with 24 samples.

Results

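The response of wild type mycelium of Phycomyces blakesleeanus to light was described across all 14410 genes of the authors' light against dark comparison, out of 14490 genes listed in the series. Every gene of that comparison was kept, so no measured value chose the members. Phycomyces is a filamentous fungus of the Mucoromycota, and its mycelium is the network of hyphae from which the spore-bearing stalks (sporangiophores) grow. The labels gave 3 libraries of wild type mycelium grown in darkness and 3 grown in light, all on potato dextrose agar, with total RNA taken by a Trizol protocol and a Message Amp-II kit used on it. Neither the wavelength, intensity and duration of the light, the age of the cultures nor the number of the wild type strain was given in the sources used here. The study set dark replicate 3 aside for its greater dispersion, so 2 dark and 3 light libraries lay behind each fold, a choice made on the measured outcome that lowers the spread seen by the test. Set beside it were light against dark in mycelium of the strain ΔL51, labelled a photoreceptors mutant (3 dark and 3 light libraries, mutated genes not named in the labels), and light against dark in wild type sporangiophores (2 dark and 2 light libraries kept).

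Blue light reaches fungal genes mainly through the White Collar complex, a pair of proteins in which White Collar 1 binds a flavin that absorbs the light and White Collar 2 is its partner. The complex is itself a transcription factor, so illumination acts directly on its target genes. In Phycomyces the mad mutants, isolated for altered phototropism, include those in the White Collar genes MadA and MadB, and light is also known there for stimulating the synthesis of beta-carotene. Genes of signalling and metabolism are often present in several copies in this fungus, and the series title concerns genome duplication.

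The values were one fold change per gene, not one value per library. Per gene, the authors' deposited table held a log2 fold change, an average log2 CPM (a read count scaled to library depth), and the likelihood ratio, p-value and FDR of their edgeR test. The log2 CPM of all 14410 genes was identical in the authors' deposited tables for wild type and mutant sporangiophores, so it is one average shared with those structures and not the level in mycelium. A gene was called where that FDR was under 0.05. An approximate standard error (SE) was computed from each fold and its likelihood ratio, and approximate 95% intervals follow from it. The title of the table sets light against dark, so a positive fold is taken to mean more RNA in light.

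Of the genes tested, 1421 were called higher in light and 603 lower in the authors' deposited table, which is 9.86% and 4.18% of the 14410 genes and 14.0% together. The median rise was larger than the median fall. The median log2 fold change was 1.78 among genes called higher (quartiles 1.28 and 2.67) and -1.36 among genes called lower (quartiles -1.83 and -1.08), with median approximate standard errors of 0.43 and 0.37. A change of at least 4-fold was found for 604 of the higher genes (42.5%) and for 112 of the lower genes (18.6%), and one of at least 16-fold for 160 and 12. Of these 160 rises, 79 had the fold of 7 to 20 reads in light and none in dark, as described below. Some of the 12 falls lay on such steps in the other direction. The smallest changes called were 0.65 upward and 0.66 downward on the log2 scale. The median of the 11217 folds other than 0 was 0.39. Centred on that median, 828 genes were higher and 1235 lower, so the share of calls that were higher went from 70.2% to 40.1%. With a running median on log2 CPM taken out, 945 were higher and 1183 lower (44.4% higher).

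**Figure D1:**
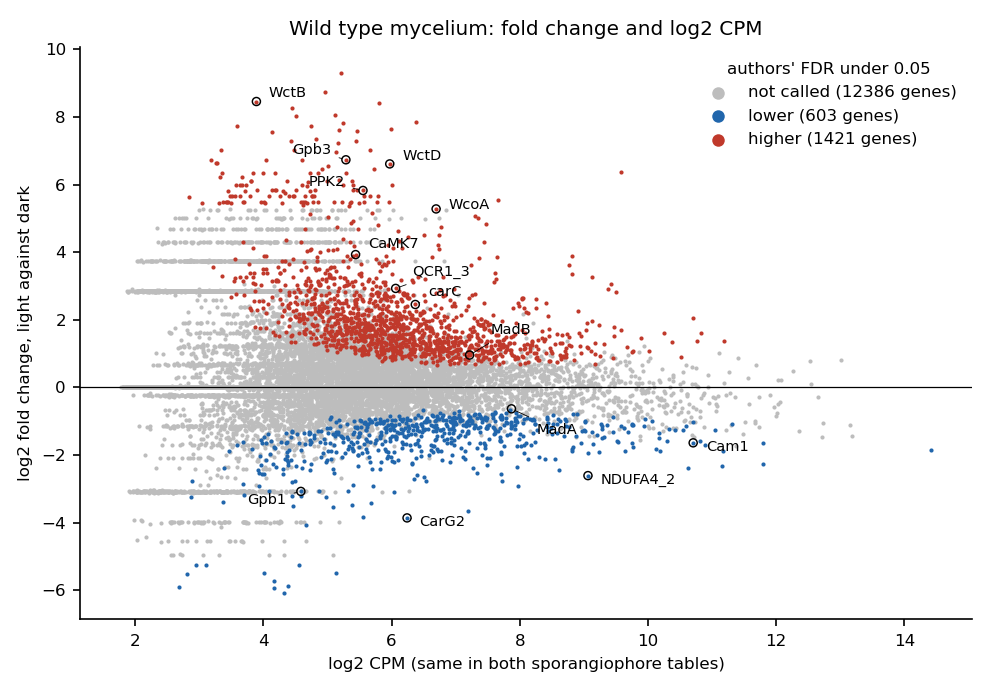
Each point is a gene of wild type mycelium, with the log2 CPM shared with the sporangiophore tables on the horizontal axis and the log2 fold change, light against dark, on the vertical axis. Red and blue mark the 1421 genes called higher and the 603 called lower at the authors' FDR under 0.05, grey the rest, and circles mark named genes. WctB, WctD and WcoA stand high among the rises, and the horizontal grey bands are genes with very few reads.

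The low folds carried the grain of single reads. Folds in the authors' deposited table bunched at 2.85 and -3.08, the most crowded values on either side among folds well away from 0. If these are the folds of 1 read in light with none in dark and of 1 read in dark with none in light, a prior in proportion to library depth places 2 and 3 reads in light at 3.74 and 4.29, and the genes found there had medians of 3.74 and 4.29. The likelihood ratio was also nearly shared by the genes of a step, with a median of 1.21 and a lower decile of 1.19 on the step of 1 read in light. The distance between both steps put the 3 light libraries together at 1.20 times the depth of the 2 dark libraries. Exactly 0 was listed for 3193 genes (22.2%), which is the fold of no reads in either condition. The absolute number of reads was not analysed here.

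On the steps of 1, 2 and 3 reads, 811, 284 and 112 genes had reads in light and none in dark, within 0.01 of the step. The reverse steps held 234, 50 and 13 genes. Light-only genes thus outnumbered dark-only genes 3.47 times at 1 read, where the light libraries were 1.20 times as deep. In mutant mycelium the same reading gave 636 light-only and 395 dark-only genes at 1 read, a ratio of 1.61 at a depth ratio of 1.51. At 2 and 3 reads the ratios were 3.08 and 2.79 in the mutant, against 5.68 and 8.62 in the wild type. The part of library number and depth in the excess of rises in wild type mycelium was not tested.

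**Figure D2:**
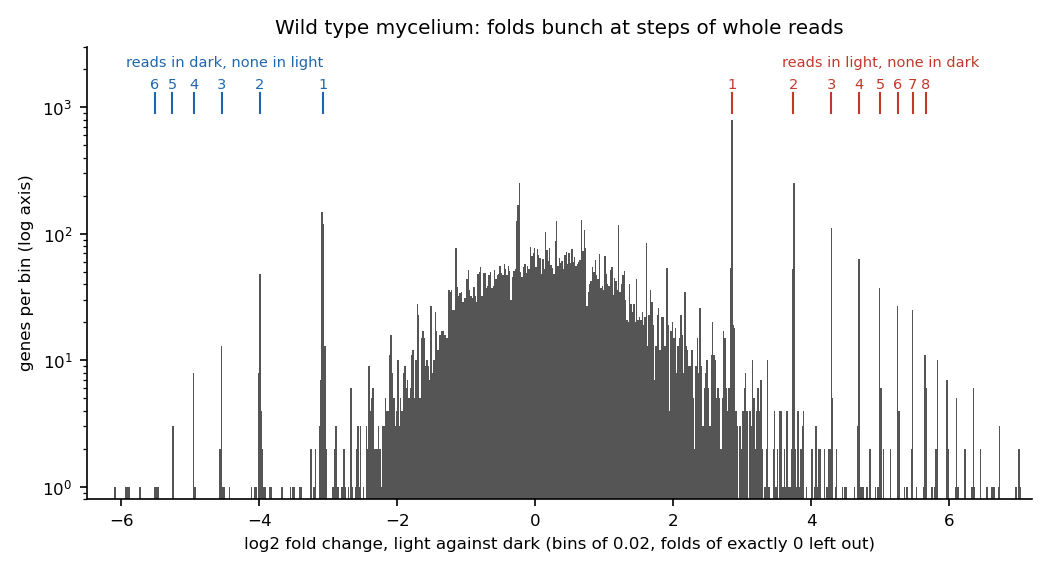
Bars count genes of wild type mycelium in bins of 0.02 in log2 fold change, on a log axis, without the folds of exactly 0. Ticks mark the folds predicted for 1 to 8 reads in light with none in dark (red) and 1 to 6 reads in dark with none in light (blue), and the isolated bars fall under them.

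The steps also show how few reads a call can rest on. With no reads in dark, 6 reads in light gave a median FDR of 0.0522 and 7 reads one of 0.0321, so 7 light reads were enough for a call. Between 7 and 20 reads, 79 genes lay on a light-only step and all 79 were called, against 7.5 genes in windows of the same width beside the steps. They make up 5.56% of the genes called higher, and all 79 are among the 160 rises of at least 16-fold. Against a floor of 3 dark reads, the step of 7 reads is a rise of 1.94-fold and that of 20 reads 5.54-fold. These values take the light count as exact, so they are not lower limits of the rise. In the dark-only direction 5 reads sufficed, with a median FDR of 0.0397 for 3 genes. The dark-only steps of 6, 7, 8 and 9 reads held 1 gene each, all called.

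Calls varied with the shared log2 CPM and with gene length. No gene was called in the lowest decile by log2 CPM. In the authors' deposited table, the share called higher climbed to 21.0% in the ninth decile and was 17.7% in the highest, while the share called lower was largest in the highest decile at 13.9%. By gene span in the RefSeq annotation, 2.43% of the shortest decile were called higher and 4.92% lower, and 17.3% of the longest decile were called higher and 3.13% lower. Genes at or above the median log2 CPM were split into 4 groups by span. This split, like the deciles, rests on the shared average and can keep genes with few mycelium reads. There the shortest group had a median log2 fold change of -0.22 with 9.77% higher and 14.5% lower, and the longest group one of 0.55 with 21.9% higher and 4.07% lower. The median log2 CPM of these groups was 5.76 and 6.14. The part of gene length in the results below was not tested, and median spans are given beside the gene lists.

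**Figure D3:**
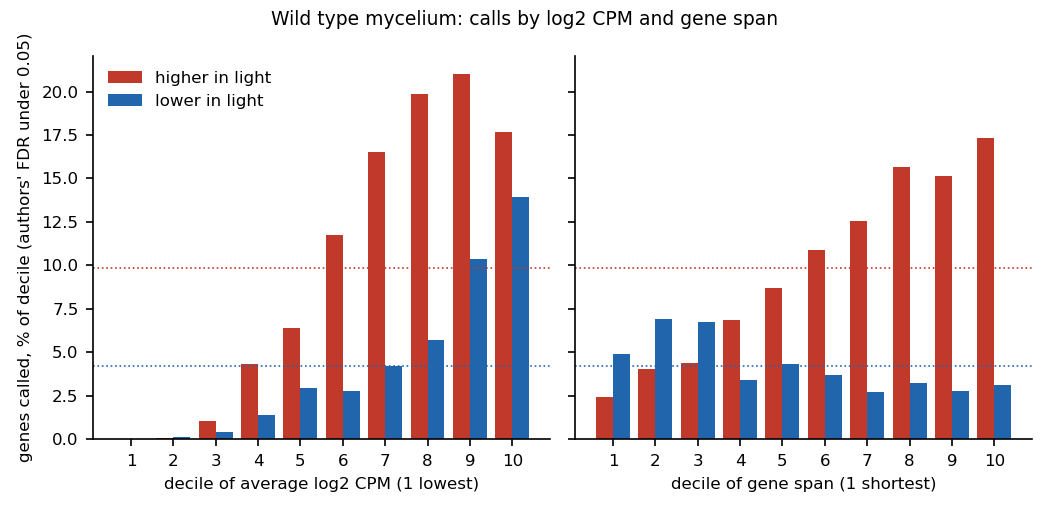
Bars give the percentage of genes called higher (red) and lower (blue) in light in wild type mycelium, for deciles of the shared log2 CPM on the left and deciles of gene span on the right. Dotted lines are the percentages over all genes, 9.86% higher and 4.18% lower. The share called higher reaches 21.0% in the ninth decile of log2 CPM and 17.3% in the longest decile of span, and lower calls outnumber higher ones in the 3 shortest deciles.

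Symbols were available for 208 of the 14410 genes, and 57 of these were called, 36 higher and 21 lower. The lists below were formed from those symbols, and the roles named are those of genes with these names. Each count is set beside 9.86% of all genes called higher and 4.18% called lower, shares that do not allow for log2 CPM or span. For mitochondrial respiration 83 of 92 genes, and for the tricarboxylic acid cycle 23 of 24, lay at or above the median log2 CPM. At or above that median, 9.77% of the shortest span group were called higher and 14.5% lower. In the third group by span (1785 to 2561 bases) 20.8% were higher and 4.19% lower. The part of log2 CPM and span in the list counts was not tested.

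Of the 6 light sensing genes (median span 1994.5 bases), 5 rose and none fell. WcoA, a White Collar 1 gene, rose 38.8-fold in the authors' deposited table, with an approximate 95% interval of 4.57 to 5.98 for its log2 fold change of 5.28. Its response in wild type mycelium exceeded that in mutant mycelium by 4.70 (SE 0.64, adjusted p = 1.30e-10) and that in wild type sporangiophores by 4.24 (SE 0.45, adjusted p = 1.52e-17), by a test of the difference of folds with Benjamini-Hochberg adjustment. Both genes next to WcoA in the RefSeq order also rose according to the authors' deposited table, PHYBLDRAFT_77613 with 1.26 (FDR 5.55e-04) and PHYBLDRAFT_155869 with 1.56 (FDR 4.07e-04). WcoA therefore stood in a run of 3 called genes, with a fold well above that of either neighbour.

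The White Collar 2 relatives spread widely. WctD rose by 6.61 with an approximate standard error of 0.55 in the authors' deposited table. WctB had the largest fold of any gene with a symbol, 8.45 with an approximate standard error of 1.15. Its fold lies beyond the steps that could be resolved, so whether any dark read was counted is not known. In the authors' deposited table for mutant mycelium WctB stood at -2.60, the step of 1 dark read and no light read. The difference for WctB of 11.1 (SE 2.26, adjusted p = 5.91e-05) therefore rests, on this reading, on a single read on the mutant side. WctC rose by 1.30 (SE 0.46) and MadB by 0.96 (SE 0.27) in the authors' deposited table. Neither passed the test of a difference from the mutant, with 1.19 (adjusted p = 0.213) for WctC and 0.75 (adjusted p = 0.438) for MadB, and WctC did not pass that from sporangiophores (adjusted p = 0.0769). The response of MadB differed from that in sporangiophores by -0.01 (SE 0.41, adjusted p = 0.986), an error that does not show equal responses. MadA, the White Collar 1 gene of the classical mutants, had -0.63 (FDR 0.166) according to the authors' deposited table and was not called. Centred on the median fold, MadB and WctC lost their calls and MadA was lower, at -1.02, which left 3 genes higher.

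Carotene genes did not move as one group. Among 8 genes (median span 2051.5 bases) 1 rose and 2 fell. carC rose by 2.45 (SE 0.44, FDR 1.87e-06), CarG2, named as the geranylgeranyl pyrophosphate synthase gene carG of related fungi, fell by 3.86 (SE 0.49, FDR 7.44e-13), the lowest fold of any gene with a symbol, and carRA2 fell by 1.13 (FDR 0.0153) according to the authors' deposited table. The neighbouring genes of the beta-carotene pathway proper, CarB for phytoene dehydrogenase and CarRA for phytoene synthase and lycopene cyclase, had -0.13 (FDR 1) and 0.38 (FDR 0.679) according to the authors' deposited table. Of the isoprenoid genes, hmgR, for hydroxymethylglutaryl-CoA reductase, had -0.66 and ippI/dmappS, for isopentenyl diphosphate isomerase, -0.06 there, and carRA3 had -0.44, none of them called. CarB and CarRA differed from mutant mycelium all the same, by 2.51 (SE 0.61, adjusted p = 0.00105) and 2.66 (SE 0.62, adjusted p = 5.75e-04), since both fell there by 2.65 and 2.28 in the authors' deposited table for the mutant. carC differed from the mutant by 2.19 (adjusted p = 0.00666) but from sporangiophores by -0.37 (adjusted p = 0.734), where its fold of 2.82 in the authors' deposited table was also called. CarG2 was lower in mutant mycelium too, at -2.07 in the authors' deposited table for the mutant, and its fall was larger in the wild type by 1.79 (adjusted p = 0.0448).

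Protein kinases were called higher in 10 of 36 cases and lower in none (27.8% higher, median span 1594.5 bases, median log2 CPM 4.82). The list median was 0.72, with a range from -1.70 to 5.82, against a median of 0 over all genes and 0.39 over folds other than 0. Largest among the kinase rises of the authors' deposited table were PPK2 (5.82, FDR 0.0118), PPK3 (4.01, FDR 5.55e-04), CaMK7 (3.93, FDR 1.39e-13), of the calcium and calmodulin-dependent family by its symbol, PPK5 (3.81, FDR 0.00104) and CaMK10 (2.67, FDR 0.0247). The errors set them apart. CaMK7 had an approximate standard error of 0.48, while PPK3 and PPK5 had 0.95 and 0.94. PPK2 lay on the step of 9 light reads and no dark read, in fold and in likelihood ratio (10.7 for both). Against a floor of 3 dark reads over the group, with the light count taken as exact, that is a rise of 2.49-fold at the depth ratio above. Of 35 kinases with both standard errors, 4 responded more strongly upward than in mutant mycelium and 8 more than in sporangiophores, against 10.1% and 9.44% of all genes tested. None had a lower fold than in the mutant and 2 had a lower one than in sporangiophores, against 4.37% and 10.5%. CaMK7 was among both, with differences of 2.11 (adjusted p = 0.0129) and 3.98 (adjusted p = 7.92e-07), and it was itself called in the mutant at 1.82 in the authors' deposited table for that strain. Centred on the median fold, 6 kinases were higher and 1 lower, and an F reference for the likelihood ratio left 4 higher.

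Other signalling genes moved in both directions. Heterotrimeric G proteins couple membrane receptors to the cell interior as trimers of alpha, beta and gamma subunits. Among 11 subunits 1 rose and 3 fell (median span 1609 bases). Both Gpa1 copies, alpha subunits by their symbol, fell, Gpa1A by 1.44 (FDR 0.00230) and Gpa1B by 1.83 (FDR 0.00747), while Gpa2B and Gpa2C had -0.03 and 0.29, in the authors' deposited table. The beta subunits split, with Gpb3 at 6.73 (FDR 2.11e-04) and Gpb1 at -3.08 (FDR 0.046) according to the authors' deposited table. Gpb1 had an approximate standard error of 1.12 and lost its call at an FDR under 0.01. Its fold lay on the step of 1 dark read, but its likelihood ratio was 7.48 against a median of 1.58 there. Gpb3 lay on the step of 17 light reads and no dark read, a rise of 4.71-fold against the floor of 3 dark reads, with the light count taken as exact. Gpb2 and Gpb4 were not called, with -0.17 and -0.54. Cam1, calmodulin by its symbol, the calcium-binding partner of the CaMK kinases, fell by 1.64 (FDR 5.72e-04) according to the authors' deposited table. In sporangiophores the same gene was called higher, at 2.25 in the authors' deposited table, and the difference of -3.89 (SE 0.57) passed its test (adjusted p = 2.47e-09). Of the 4 regulatory subunits of cAMP-dependent kinase, PkaR1 fell by 0.83 (FDR 0.0284) according to the authors' deposited table. PkaR4 had 4.29 (FDR 0.226) according to the authors' deposited table, the step of 3 light reads and no dark read. In 2-component signalling, where a histidine kinase passes a phosphate on to its partners, the phosphotransfer gene Hpt_2 rose by 1.50 (FDR 8.35e-04) and the histidine kinase HK_IA by 0.92 (FDR 0.0402) according to the authors' deposited table, 2 of 8 measured genes. RdRP-1a, an RNA-dependent RNA polymerase of the kind used in RNA silencing, rose by 2.55 (FDR 9.47e-06) according to the authors' deposited table, and its copy RdRP-1b had 0.53 (FDR 0.884).

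The tricarboxylic acid cycle, which oxidises acetyl-CoA in the mitochondrion, had 7 of 24 genes higher and 1 lower (29.2% higher, median span 2232.5 bases). PbFumHa, a fumarase by its symbol, rose by 2.13 (SE 0.33), and the aconitases PbAcoa and PbAcod rose by 1.99 (SE 0.34) and 1.97 (SE 0.32), in the authors' deposited table. PbIdh1b, an isocitrate dehydrogenase gene, rose by 1.14 (FDR 0.00246) and PbSucCoASb, of succinyl-CoA synthetase, fell by 0.92 (FDR 0.0402) according to the authors' deposited table. In mutant mycelium PbAcoa and PbAcod fell by 2.29 and 1.74 in the authors' deposited table for that strain, and their differences of 4.29 (SE 0.52, adjusted p = 1.09e-13) and 3.72 (SE 0.47, adjusted p = 1.32e-12) passed. In all, 6 of the 24 genes had a higher fold in wild type than in mutant mycelium and none a lower one, against 10.1% and 4.37% of all genes tested. leuB/leu1, 3-isopropylmalate dehydrogenase of leucine synthesis by its symbol, is an enzyme of another pathway that was called in both strains, in opposite directions. It rose by 1.56 (FDR 6.53e-06) according to the authors' deposited table, fell by 1.59 (FDR 0.0196) according to the authors' deposited table for the mutant, and differed by 3.15 (SE 0.51, adjusted p = 9.70e-08). leuA and leuC were not called, with 0.38 and 0.57. Centred on the median fold, 3 cycle genes were higher and 2 lower.

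Genes of the mitochondrial respiratory chain, which carries electrons to oxygen and makes ATP, were called lower in 13 of 92 cases and higher in 6 (14.1% lower, median span 883 bases, median log2 CPM 7.79). Complex I, which takes electrons from NADH, had 6 of 36 lower and 1 higher, and ATP synthase had 6 of 24 lower and 1 higher, while complex II had 0 of 5, complex III with cytochrome c 1 of 15 and complex IV 0 of 12 lower. No test of a difference between complexes was made. The medians were -0.14 for complex I, -0.53 for complex II, -0.58 for complex III with cytochrome c, -0.35 for complex IV and -0.42 for ATP synthase. NDUFA4_2 fell by 2.61 (SE 0.37), INH1_2, the ATP synthase inhibitor by its symbol, by 1.64 (SE 0.34), Ndufs6 by 1.45 (SE 0.39), NUVM by 1.41 (SE 0.47), ATP20 by 1.25 (SE 0.37) and NDUFB7 by 1.23 (SE 0.31), in the authors' deposited table. Rises in the authors' deposited table were QCR1_3 (2.93, SE 0.42) and QCR1_2 (1.23, SE 0.36), core subunits of complex III by their symbol, COX4_2 (1.18), ATP16_2 (1.14), SDH1 (0.90), of succinate dehydrogenase, and NDUFS7 (0.74). Of the 9 genes that bypass the proton-pumping complexes, NDE2 rose by 1.52 (FDR 1.94e-04) and NDE4 by 1.01 (FDR 0.00425) according to the authors' deposited table, both external NADH dehydrogenases by their symbol, and AOX, the alternative oxidase, had 0.06 (FDR 1).

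The authors' deposited table for wild type sporangiophores called 50 of the 92 respiratory genes higher and 1 lower, against 7.23% and 1.18% of all genes. Their median log2 fold change was 1.34 there, against -0.35 in mycelium. By the test of the difference, 48 of the 92 had a lower fold in mycelium and 1 a higher one, against 10.5% and 9.44% of all genes tested. In mycelium 73 of the 92 were not called and 36 folds were above 0. QCR1_2, SDH1, COX4_2 and NDUFS7 were called higher in both structures, and 8 respiratory genes were called in opposite directions. Against mutant mycelium, whose median for the list was -0.24, 7 of 91 were lower and 5 higher, beside 4.37% and 10.1% of all genes tested. Centring on the median fold gave 28 lower and 2 higher in wild type mycelium. Under the F reference the calls came down to 4 lower and 2 higher.

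**Figure D4:**
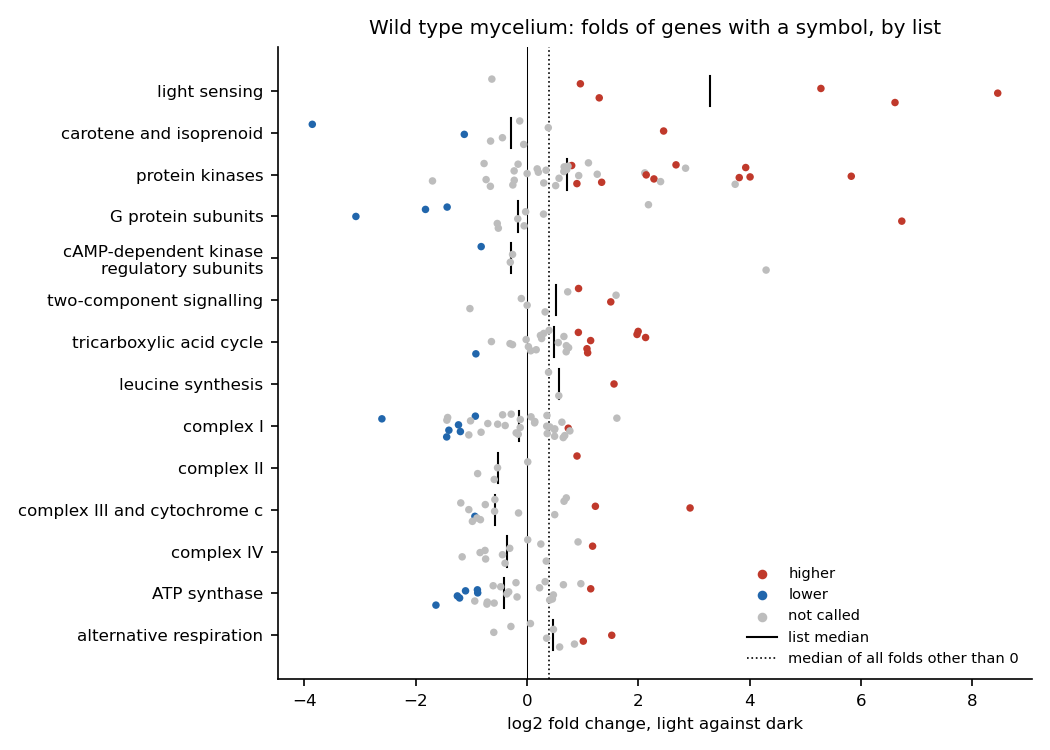
Points are the log2 fold changes, light against dark, of genes with a symbol in wild type mycelium, one row for each list. Red points were called higher, blue points lower and grey points not called, black bars are list medians, and the dotted line is the median of 0.39 over all folds other than 0. Light sensing genes reach 8.45 and 5 of 6 are red, whereas the medians of complexes I to IV and ATP synthase lie left of 0.

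Copies of a gene often differed in their calls. The symbols named 39 families with more than 1 copy in the table, 97 genes in all. A call was made in 23 families, and in 16 of these a single copy was called. Among the 208 genes with a symbol 36 were called higher and 21 lower, and among all genes 14.0% were called. A single called copy is therefore not in itself a mark of differing copies. Every copy was called, in one direction, in 3 families, namely ATP17, Gpa1 and the Wct genes. ATP17 and ATP17_2 fell by 0.89 and 1.11 in the authors' deposited table. The Gpb family was the only one of the 39 with calls in both directions, and its lower call, Gpb1, lay near the threshold (FDR 0.046 in the authors' deposited table). The 4 QCR1 copies ranged from -1.05 to 2.93, with 2 called higher, and the 3 NDUFA4 copies from -2.61 to 1.61, with 1 called lower. NUXM and NUXM_2 had 0.77 (FDR 0.321) and -1.20 (FDR 0.00649) according to the authors' deposited table. The median range within a family was 0.97 on the log2 scale. A difference in calls is not a tested difference between copies, and how reads shared by similar copies were assigned was not given in the sources used here.

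Genes without a symbol reached further in both directions than those with one, but only 208 of the 14410 genes had a symbol. Among those at or above the median of the shared log2 CPM, the largest rises in the authors' deposited table were PHYBLDRAFT_12373 (9.30), PHYBLDRAFT_11342 (8.74), PHYBLDRAFT_122815 (8.40) and PHYBLDRAFT_104644 (8.06), with approximate standard errors of 0.91, 1.09, 1.17 and 1.17. The first had the narrowest interval, 7.52 to 11.1. The largest falls in the authors' deposited table were PHYBLDRAFT_62767 (-5.50, SE 1.82), PHYBLDRAFT_151839 (-4.07, SE 0.83), PHYBLDRAFT_181357 (-3.82, SE 0.56) and PHYBLDRAFT_181579 (-3.67, SE 0.35). The last was the most precise of these, with an FDR of 5.52e-23. The median of 4.64 does not keep out genes with few mycelium reads, since PPK2, on the step of 9 light reads, has a log2 CPM of 5.56.

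Called genes were also ranked by log2 CPM, which is shared with sporangiophores and does not rank them in mycelium. The 6 genes called lower with the highest log2 CPM in the authors' deposited table were PHYBLDRAFT_124466 (14.42), PHYBLDRAFT_183479 (11.79), PHYBLDRAFT_186072 (11.79), PHYBLDRAFT_128566 (11.32), PHYBLDRAFT_135727 (11.18) and PHYBLDRAFT_182139 (11.16). Their log2 fold changes ran from -2.32 for PHYBLDRAFT_182139 to -1.08 for PHYBLDRAFT_128566. PHYBLDRAFT_124466, which had the highest log2 CPM of the table, fell by 1.85 (SE 0.60, FDR 0.0201) in mycelium and was called higher at 2.64 in sporangiophores, in the authors' deposited tables. Of these 6 genes, 5 had a lower fold in mycelium than in sporangiophores by the test of the difference, all but PHYBLDRAFT_128566 (adjusted p = 0.125). They were chosen by the mycelium fold that enters the difference, so this count is a description. The same difference passed downward for 438 of all 603 genes called lower (72.6%). The 6 genes called higher with the highest log2 CPM, from 10.38 to 11.19, were PHYBLDRAFT_179813 (1.38), PHYBLDRAFT_137435 (1.62), PHYBLDRAFT_89330 (1.39), PHYBLDRAFT_126250 (2.05), PHYBLDRAFT_79415 (0.90) and PHYBLDRAFT_135934 (1.34), with log2 fold changes of the authors' deposited table in parentheses.

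Against the photoreceptor mutant, the difference of folds was tested for 10462 genes with a standard error in both tables. The fold was higher in wild type mycelium for 1055 genes (10.1%) and lower for 457 (4.37%), 14.5% together. With both comparisons centred on their median fold, 733 were higher and 737 lower. Of the 1421 genes called higher in the wild type, the difference passed for 852 upward, of 1415 tested. Of the 603 called lower it passed for 276 downward. These genes were chosen by the wild type fold that enters the difference, so the shares are a description. Few of these genes were called in the mutant itself. In the authors' deposited table for the mutant, 22 of the 1421 were called higher and 29 lower, and of the 603 there were 7 called lower and 3 higher. Among all genes of that table, 0.541% were called higher and 0.576% lower. The median fold of the 1421 genes in the mutant was -0.15, with 38.5% of folds above 0, and that of the 603 was 0.16, with 64.2% above 0. Genes not called in the wild type had 43.6% of folds above 0 there, but 2726 of their 12138 folds were exactly 0. Of the rest, 5298 were above 0 and 4114 below. Their median fold other than 0 was 0.12, against -0.15 for the 1421 genes and 0.16 for the 603.

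Some genes were called in opposite directions in both strains. PHYBLDRAFT_108956 rose by 2.21 (FDR 2.63e-08) in the wild type and fell by 3.51 (FDR 7.78e-10) in the mutant, in the authors' deposited tables, a difference of 5.72 (SE 0.59, adjusted p = 2.43e-18). PHYBLDRAFT_121806 had 2.57 and -2.22 in the authors' deposited tables, a difference of 4.79 (SE 0.55, adjusted p = 4.94e-15). The largest upward test values otherwise were those of PHYBLDRAFT_12373 (difference 10.1, SE 0.99) and PHYBLDRAFT_22465 (7.21, SE 0.77), and neither was called in the mutant. The largest downward ones were PHYBLDRAFT_68118 (-3.66, SE 0.50), PHYBLDRAFT_139239 (-3.06, SE 0.49), PHYBLDRAFT_78464 (-3.44, SE 0.57) and PHYBLDRAFT_181357 (-4.35, SE 0.73). All 4 were called lower in wild type mycelium and not called in the mutant.

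The genes called higher in both structures numbered 114, which is 8.02% of the 1421 higher in mycelium and 10.9% of the 1042 higher in sporangiophores. These shares lie near those over all genes, 7.23% called higher in sporangiophores and 9.86% in mycelium. A further 131 genes were lower in mycelium and higher in sporangiophores, 21.7% of the 603 lower in mycelium. With a symbol, 10 genes were higher in both structures, among them WcoA, carC, MadB and Hpt_2, and 9 were lower in mycelium and higher in sporangiophores, which were Cam1 and 8 respiratory genes. The difference of folds passed for 2233 of 11213 genes tested (19.9%), higher in mycelium for 1059 (9.44%) and lower for 1174 (10.5%). The largest upward test values were those of PHYBLDRAFT_176016 (difference 7.08, SE 0.60), PHYBLDRAFT_12373 (9.95, SE 1.01), PHYBLDRAFT_29012 (4.93, SE 0.50) and PHYBLDRAFT_74577 (5.61, SE 0.59). Among the largest downward ones, PHYBLDRAFT_79190 (-4.86, SE 0.63) and PHYBLDRAFT_180978 (-3.81, SE 0.47) were not called in mycelium, while PHYBLDRAFT_183806 (-4.94, SE 0.60) and PHYBLDRAFT_58050 (-4.58, SE 0.61) were called lower there and higher in sporangiophores.

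**Figure D5:**
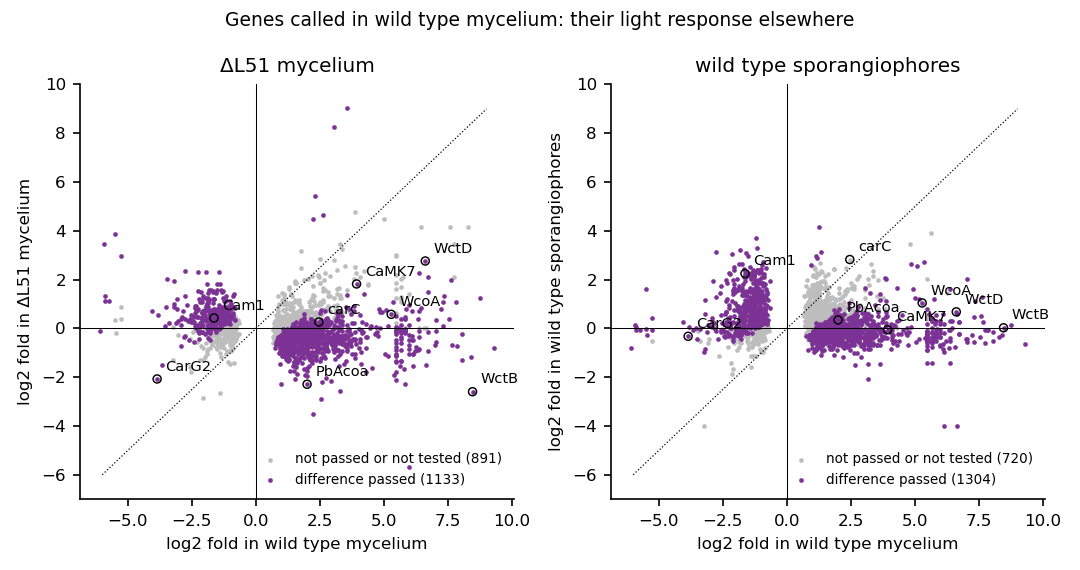
Each point is 1 of the 2024 genes called in wild type mycelium, with its log2 fold change there on the horizontal axis and in ΔL51 mycelium (left) or wild type sporangiophores (right) on the vertical axis. Purple points passed the test of the difference at an adjusted p under 0.05, 1133 on the left and 1304 on the right, and the dotted line marks equal folds. The genes were chosen for their fold in wild type mycelium, so the share of purple points is not that of all genes.

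Neighbouring genes were looked at because position played no part in choosing the genes. In the RefSeq order, 12962 adjacent pairs had both genes in the table. Of the neighbours of genes called higher, 14.3% were called higher, against 9.86% of all genes, and of the neighbours of genes called lower 4.55% were called lower, against 4.18%. Across directions, 11.2% of the neighbours of genes called lower were called higher. Of the neighbours of genes called higher, 4.77% were called lower. Both genes were higher in 192 pairs, both lower in 26, and 128 pairs had one of each. Runs of 3 or more called genes in a row numbered 23 for higher and 2 for lower, and the longest held 4 genes. One run of 3, PHYBLDRAFT_172641 (4.11), PHYBLDRAFT_31818 (1.89) and PHYBLDRAFT_13419 (4.50), had an FDR of at most 3.34e-11 for each gene in the authors' deposited table, and was picked after its values were seen. Strand was not given in the table used, so reads that run from one gene into the next could not be told apart from reads of both.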

How the data were processed

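The comparison used here came as the authors' deposited table of light against dark in wild type mycelium, with tables for mutant mycelium and wild type sporangiophores beside it. The submitters' processing notes name Bowtie and edgeR. Versions, build, annotation, counting rule and filters are not given in the sources used here. The columns, per the file headers, are log2 fold change, log2 CPM, a likelihood ratio (treated as a score), p-value and FDR, all as the authors deposited them. Recomputing both from the likelihood ratio (chi-square, then Benjamini-Hochberg over the table) returned the p-value and FDR columns. The fold change per gene is the authors', and no value per library was given, so no count model was fitted and the count test planned first was replaced by the authors' FDR. The p-values rest on spread estimated between the libraries kept, which the series design text calls biological replicates. That estimate may be shared with other groups of the series. On the steps of few reads the likelihood ratio was nearly shared, so the p-value there does not measure the spread of each gene on its own.

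Computed here, with Python 3.11.15, numpy, pandas 2.3.3 and scipy 1.17.1, were approximate standard errors, read steps (a fold within 0.01 of the value for whole reads), counts per list, and differences of 2 log2 folds divided by the root of their summed squared standard errors, with a two-sided normal reference and Benjamini-Hochberg adjustment over all genes tested. The folds compared come from different libraries. The log2 CPM is identical for all 14410 genes in the wild type mycelium and both sporangiophore tables, so these tables appear to come from joint processing, and the difference from sporangiophores treats standard errors as independent that may share a dispersion estimate. The standard error is poor for genes with no reads on one side. The test was also run on simulated normal folds that took these standard errors as true. That run cannot check the approximation behind them or a shared dispersion estimate. IDs matched PHYBLDRAFT locus tags of assembly Phybl2 for 14355 of 14410 (99.6%). Scaffolds were taken to change where start positions turned back, since the table names none.

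The members, lists and tests were chosen with earlier results of these data known. Named genes were all light sensing and carotene genes, the 12 largest rises and falls with a symbol, the 4 largest rises and falls without one at or above the median log2 CPM, up to 4 called genes per list and direction, the 6 called genes of highest log2 CPM per direction, the 4 largest test values per direction of each difference, and copies called in opposite directions. No reference products were given, so a part of the rule that needed them named none. Other genes printed are members of the lists or families described, or neighbours, and were chosen after their values were seen. Alternatives were an FDR under 0.01, a minimum of 2-fold, a filter at the median log2 CPM, centring, a running median over 501 genes of log2 CPM, and an F reference with 1 and 12 degrees of freedom. The 12, also used for the t reference, are 20 kept libraries less 8 groups, which assumes 1 fit of the whole series. The log2 CPM of mutant mycelium was not shared with the other tables, so that assumption may not hold. With fewer degrees of freedom, fewer calls could remain.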

Additional observations from a re-analysis of the deposited data

Results flagged for a closer look

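The light response of wild type mycelium differed between strains or structures for the following genes, each by the test of the difference of folds, given as log2 fold change in wild type mycelium less that in the other group. Against mutant mycelium the differences were 4.70 for WcoA, 3.85 for WctD, 11.1 for WctB, 2.51 for CarB, 2.66 for CarRA, 2.19 for carC and -1.79 for CarG2. Among genes without a symbol they were 10.1 for PHYBLDRAFT_12373, 7.21 for PHYBLDRAFT_22465, 5.72 for PHYBLDRAFT_108956, 4.79 for PHYBLDRAFT_121806, -3.06 for PHYBLDRAFT_139239, -3.44 for PHYBLDRAFT_78464, -3.66 for PHYBLDRAFT_68118 and -4.35 for PHYBLDRAFT_181357.

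Against wild type sporangiophores the differences were 4.24 for WcoA, 5.93 for WctD, 8.43 for WctB and -3.54 for CarG2. Among genes without a symbol they were 7.08 for PHYBLDRAFT_176016, 9.95 for PHYBLDRAFT_12373, 5.61 for PHYBLDRAFT_74577, 4.93 for PHYBLDRAFT_29012, -3.81 for PHYBLDRAFT_180978, -4.58 for PHYBLDRAFT_58050, -4.86 for PHYBLDRAFT_79190 and -4.94 for PHYBLDRAFT_183806.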

How the results depend on the processing

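No paired analysis was possible because values per library were not given, and leaving out replicates, DESeq2 and another normalization were not run for the same reason. At an FDR under 0.01, 920 genes were higher and 332 lower, with 1 carotene gene lower, 5 kinases higher, 3 respiratory genes higher and 7 lower, and 0 tricarboxylic acid cycle genes lower. With a minimum of 2-fold 0 cycle genes were lower, and among genes at or above the median log2 CPM 21 respiratory genes were lower. Centred on the median fold, 828 genes were higher and 1235 lower, with 3 light sensing genes higher and 1 lower, 6 kinases higher and 1 lower, 2 respiratory genes higher and 28 lower, and 3 cycle genes higher and 2 lower. With the trend on log2 CPM taken out, 945 were higher and 1183 lower, with 6 kinases higher and 1 lower. Under the F reference 756 were higher and 241 lower, with 3 light sensing genes higher, 1 carotene gene lower, 4 kinases higher, 1 G protein subunit lower, 2 respiratory genes higher and 4 lower, and 0 cycle genes lower.

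The share of higher genes among neighbours of higher genes was 11.3% at the stricter FDR (6.38% of all genes higher), 9.77% centred (5.75%), 11.8% with the trend taken out (6.56%) and 8.93% under the F reference (5.25%). Centring both tables left 733 genes with a higher fold than in mutant mycelium and 737 with a lower one. For wild type sporangiophores it left 621 above and 1787 below. With a t reference the counts were 408 above and 78 below the mutant, and 456 above and 629 below sporangiophores. Leaving out genes over 6 in size kept each of these counts within 1.5 times. Of the 76 named genes that were called, 45 kept their call and direction under every alternative that could be run for them, and none changed direction. The cause of each change was not tested.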
